A study of Mus musculus with 12 samples.

Results

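Alternative last exons are the different final exons in which transcripts of a gene can end. In the mouse cumulus cell RNA libraries described here, 1197 of 16705 listed last exons, in 550 of 12149 genes, met the rule for alternative last exons. The rule took genes with at least 2 last exons at different positions on the strand that carried most of the gene's signal, each with a mean of at least 1 FPKM over the 6 libraries, with a last exon missing from a table counted as 0. FPKM is the number of fragments per kilobase of transcript, scaled to the fragments mapped in the library. In a library, the share of a last exon is its FPKM as a percentage of the FPKM summed over every last exon listed for the gene. The rule used level and number alone, without regard to treatment. A last exon could still pass through the libraries of 1 group alone. The longer last exons of Mat2a and Abcb8 and the shorter one of Pja1 passed through untreated libraries only.

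The transcripts of a gene end where the cleavage and polyadenylation machinery cuts the nascent RNA and adds a poly(A) tail. An upstream last exon can be used when that cut falls before the downstream exons, or when a splice site is passed over and the exon runs on into the intron. Below, upstream and downstream refer to where a last exon starts. Exons with different starts can end at the same base, so a higher upstream share need not mean an earlier cut. The choice can change the end of the protein, the untranslated region that carries binding sites for microRNAs and proteins, or both. In cumulus cells, the somatic cells around the oocyte, FSH drives a broad change in transcription that accompanies the spreading of the cells in a hyaluronan matrix.

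One group held 3 RNA libraries from cells of Kunming mice given FSH, a gonadotropin, and FBS, fetal bovine serum, together for 18 hours. The other held 3 RNA libraries from Kunming mice labelled as untreated, whose time in culture is not given. The parts of FSH, of FBS and of time in culture cannot be told apart. All were labelled as granulosa cells of antral follicles with cumulus cells as the source, and the labels do not say how many animals were pooled, whether replicates were separate cultures, or whether the untreated cells came from the complexes without an oocyte that the design text mentions. A further 6 libraries of small RNA were not analysed here. Of 8 granulosa and cumulus cell markers, 7 were listed, and their sum was 451.0 to 498.8 FPKM with FSH and FBS and 496.8 to 613.1 FPKM without. Inha carried most of that sum, at 276 to 282 FPKM with FSH and FBS and 350 to 502 FPKM without. Fshr, Inha and Wt1 were lower in every FSH and FBS library than in any untreated one, and Nr5a2, Amh and Fst were higher. Kitl was unlisted in FSH and FBS library 3, and Foxl2 was listed in neither group. Of 10 oocyte markers 7 were listed, with sums of 0.157 to 11.7 FPKM in FSH and FBS libraries and 12.6 to 16.5 FPKM in untreated ones, and Zp1, Zp2 and Bmp15 were listed in none. The 5 theca and stroma markers, of which Pdgfra was listed in none, summed to 14.3 to 17.5 FPKM in FSH and FBS libraries and 61.3 to 75.1 FPKM in untreated ones. Leukocyte markers summed to 2.96 to 7.19 FPKM with FSH and FBS and 8.97 to 11.8 FPKM in untreated libraries. Of 5 endothelial markers 2 were listed, at 2.58 to 3.37 FPKM with FSH and FBS and 0 to 0.438 FPKM in untreated libraries, and Kdr, Tek and Emcn were listed in none. The part of other cell types in the shares below was not tested.

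Of the 550 genes, 474 had 2 kept last exons, 60 had 3, 11 had 4 and 5 had 5, while 7704 genes had only 1. The lengths of the members ran from 3 to 17497 bases with a median of 724, and 8 were shorter than 30 bases. In the middle gene of those tested, the leading last exon carried 77.8% of the gene's last exon FPKM, and in 98 genes it carried over 90%, so that in most genes the additional last exons were the minor ones. At the edge of the rule, a last exon of Snx12 averaged 1.001 FPKM and was kept, and one of Ints13 averaged 0.999 FPKM and was not.

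Untreated library 2 stood apart from the other 5 libraries in how its table was built. Where the other 5 tables described the same event, at least 99.55% of pairs carried the same event identifier. With untreated library 2 at most 0.0387% did, although 46464 to 59974 events matched by type and position. Its table held 1864 last exons seen in no other library, against 448 to 657 in each of the others. Of the members, 105 were listed only in that library, and 6 to 15 only in any 1 of the others. A further 94 were missing only from that library, against 2 to 31 for each of the others. Without it the rule gave 480 genes, of which 451 were among the 550. Results that rest on it are given with and without it.

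Of the 1197 members, 719 were listed in all 6 libraries, and 163 in a single one. A share could be compared in 1056 last exons of 485 genes. The other 141, in 65 genes, belonged to genes with no last exon listed in at least 1 library. Libraries 1 and 2 of a group lay much closer to each other than to library 3 at the level of whole genes. More than 2-fold differences separated libraries 1 and 2 in 2.82% of 9022 genes for FSH and FBS and in 4.54% for untreated cells, and separated library 3 from them in 15.9% to 22.9%. Libraries 1 and 2 were therefore averaged and counted as 1 sample, giving n = 2 in each group.

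Differences in last exon use between treatments overlapped in size with those within a treatment. Between FSH and FBS libraries 1 and 2 the median absolute difference in share over the 1056 last exons was 4.67 percentage points, and it was 10.96 and 12.03 points between each of them and library 3. Among untreated libraries it was 9.16 points between libraries 1 and 2, 9.49 points between 1 and 3, and 12.9 points between 2 and 3. The 9 pairs of an FSH and FBS with an untreated library gave 7.33 to 15.5 points, within which the lowest was FSH and FBS library 3 against untreated library 3. The closeness of libraries 1 and 2 at gene level did not carry over to last exons in untreated cells. There, 145 last exons differed by more than 50 points between libraries 1 and 2, against 57 between the same libraries of FSH and FBS. The plot of share differences between pairs of libraries shows that most between-treatment pairs lay within the range of the within-treatment pairs, with 2 above it and none as low as FSH and FBS libraries 1 and 2, and that most single-library last exons came from untreated library 2.

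**Figure D1:**
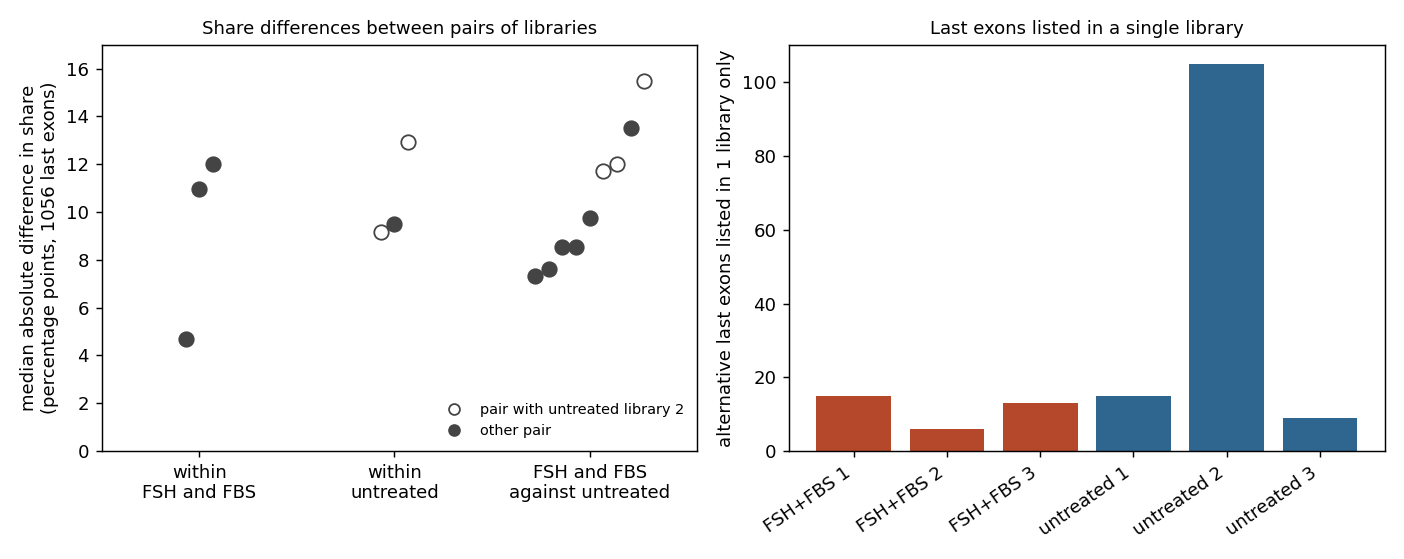
Left, the median absolute difference in last exon share (percentage points, 1056 last exons) for each pair of libraries, grouped as within FSH and FBS, within untreated, or between them; open circles are pairs with untreated library 2. Right, bars count the alternative last exons listed in a single library; untreated library 2 holds 105, and the others 6 to 15.

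No change in last exon use passed the test between FSH and FBS and untreated cells. With limma on the log2 ratio of a last exon to the other last exons of its gene, with 1 FPKM added to each, 0 of 1056 last exons were called at an adjusted p under 0.05 (0.0% of those tested). The lowest adjusted p was 0.999. Without FSH and FBS library 2 the last exons of Snord42b were called, 1 higher and 1 lower. At an unadjusted p under 0.05 there were 32 (3.03%), of which 18 were higher and 14 lower. The last exons of a gene share one total, so their differences mostly mirror each other. Counts of higher and lower, and the median difference, are thus held near balance and give no direction. The median difference in share, FSH and FBS minus untreated, was 0.214 points, and the median absolute difference was 8.45 points. In 243 last exons it exceeded 20 points, a size that pairs of libraries of the same treatment also showed. With 2 samples per group a last exon that does not pass is not shown to be unchanged.

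In 102 last exons of 68 genes, all 3 libraries of one treatment lay above all 3 of the other, which is 9.66% of those tested. With FSH and FBS 54 were higher and 48 lower, a near balance that the mirrored shares of a gene impose. Leaving out untreated library 2, the shares of the other 5 libraries did not overlap in 165 (15.6%). Fewer libraries fall apart more easily by order alone, so the rise does not show a sharper difference. How many of either count would arise by order alone was not tested. The leading last exon was the same in all 6 libraries in 270 of the 485 genes (55.7%), and in 322 (66.4%) when untreated library 2 was left out. In 3 genes, Gm20458, Hypk and Tomm40, one last exon led in every FSH and FBS library and another in every untreated library. The plot of mean shares shows most last exons scattered on both sides of the line of equal shares.

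**Figure D2:**
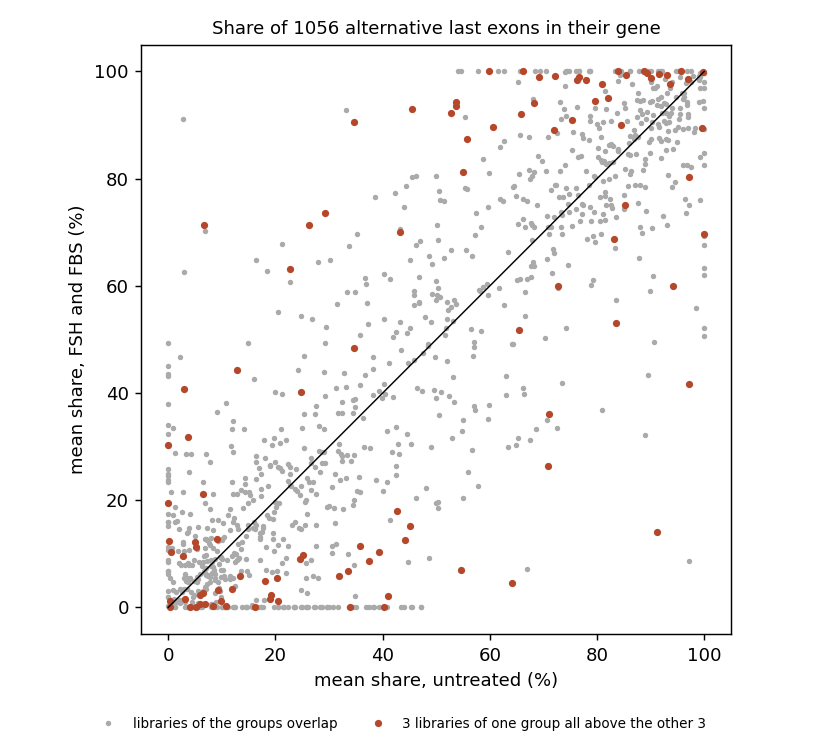
Mean share of each of 1056 last exons in its gene's last exon sum (percent), with FSH and FBS on the vertical and untreated on the horizontal axis, and the line of equal shares. Red points are the 102 last exons whose 3 libraries of one group all lie above the 3 of the other. They lie on both sides of the line, 54 above and 48 below it, because last exons of a gene mirror each other.

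The 10 genes described next had the largest share differences among 45 genes whose groups did not overlap, whose last exon was listed in all 6 libraries and whose last exon sum averaged at least 10 FPKM. Not overlapping was part of how they were picked, so their separation is a description. Each had a limma adjusted p of 0.999. Without untreated library 2 the differences ran from −76.0 points for Gm20458 to 33.4 points for Kctd17. Their directions could not change, because groups that do not overlap keep their order when a library is left out. Coordinates are those of the deposited tables, whose genome build is not given in the sources used here, and gene names at a position come from RefSeq's GRCm38.p6.

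In 4 of the 10, among them the 2 widest differences, at least 1 last exon overlapped only another gene. The last exons of Gm20458 (chromosome 2, plus strand) lie over Sys1, Trp53tg5 and Dbndd2, so the gene spans several others. Its upstream last exon, at chr2:164464358-164465508 over Sys1, which encodes a Golgi membrane protein, had shares of 1.31%, 0.485% and 27.3% with FSH and FBS, against 85.4%, 90.5% and 94.5% in the untreated ones. It took nearly all of the untreated signal and little of that with FSH and FBS. The mean shares were 14.0% ± 18.8 with FSH and FBS and 91.2% ± 4.57 untreated (SD, n = 2 each), a difference of −77.3 points. Its level was 0.0410, 0.0430 and 5.32 FPKM with FSH and FBS and 13.1, 14.5 and 15.8 FPKM in untreated cells. In bulk samples such as these, fewer cells of a type and less RNA per cell cannot be told apart.

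Hypk, which encodes a partner of the N-terminal acetyltransferase complex, has both of its kept last exons over the adjoining gene Serf2 in the tables. The 2700-base one, at chr2:121450721-121453420, had shares of 0.787%, 20.4% and 3.06% in FSH and FBS libraries and 64.7%, 60.1% and 66.0% in untreated ones. It stood at 0.0643, 0.613 and 1.08 FPKM with FSH and FBS, below every untreated library, at 27.3, 27.3 and 41.9 FPKM. The difference was −59.6 points, with mean shares of 4.56% ± 2.12 with FSH and FBS and 64.1% ± 2.60 untreated (SD, n = 2 each). These SDs leave out the spread between libraries 1 and 2, whose FPKM were averaged first. By the larger of its summed first and last exons, the gene stood at 81.4, 136.5 and 525 FPKM with FSH and FBS. In untreated cells it stood at 166, 171 and 229 FPKM. The last exon shares thus describe only a small part of the gene's signal.

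Tomm40, which encodes the channel of the mitochondrial outer membrane translocase, had 1 last exon of its own and 1 over its neighbour Apoe, the gene of a lipid carrier protein. The one over Apoe, at chr7:19696272-19697103, had 8.70, 9.23 and 24.3 FPKM with FSH and FBS and 27.8, 23.5 and 79.7 FPKM in untreated cells. The one in Tomm40, at chr7:19701313-19701857, had 31.9, 20.5 and 65.1 FPKM with FSH and FBS and 14.0, 16.5 and 21.2 FPKM in untreated cells. The levels of each exon overlapped between treatments, and library 3 was the highest for both exons in both treatments. The shares of the exon over Apoe did not: 21.4%, 31.0% and 27.1% with FSH and FBS against 66.5%, 58.8% and 79.0% in untreated cells. The share differed by −44.5 points (26.3% ± 1.15 with FSH and FBS and 70.8% ± 11.5 untreated, SD, n = 2 each). Whether that exon belongs to transcripts of Tomm40 was not tested. The level listed for Tomm40 was 62.4 FPKM with FSH and FBS and 70.9 FPKM in untreated cells on average (limma adjusted p = 0.904). That level is the sum of the last exons, the one over Apoe included, so it does not measure Tomm40 alone. Gm15181, whose last exons all lie over Obsl1, had a downstream share of 0.943%, 26.2% and 1.34% with FSH and FBS and 26.8%, 26.7% and 47.9% in untreated cells. FSH and FBS library 2 came within 1 point of the untreated libraries.

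In the other 6 the last exons overlapped their own gene, although the downstream one of Preb also overlapped Abhd1 and both of Tmem132a also overlapped Slc15a3. Preb, which encodes the factor that loads Sar1 at sites of export from the endoplasmic reticulum, had an upstream share of 25.9%, 0.0212% and 0.0685% with FSH and FBS and 38.6%, 100% and 57.2% in untreated cells. The 100% came from untreated library 2, which did not list the downstream exon, and without that library the difference was −40.9 in place of −47.6 points. Eapp, named for a phosphoprotein that binds E2F factors, has 2 last exons with a shared end, and the longer one had shares of 0.168%, 0.597% and 3.86% with FSH and FBS and 55.8%, 59.3% and 25.9% in untreated cells. The longer one had 0.0348, 0.0740 and 1.63 FPKM with FSH and FBS and 5.37, 0.503 and 4.02 FPKM in untreated cells. Its levels thus overlapped between treatments, and the 59.3% of untreated library 2 rests on 0.503 FPKM. The shorter one was unlisted in untreated library 2. It had 19.8, 11.4 and 39.8 FPKM with FSH and FBS and 3.88, 0 and 10.9 FPKM in untreated cells. For the X-linked Pbdc1 the levels of the upstream exon overlapped, at 11.5, 12.7 and 16.5 FPKM with FSH and FBS and 11.6, 11.4 and 14.0 FPKM in untreated cells. Its share was 59.2%, 66.6% and 57.3% with FSH and FBS and 92.1%, 85.0% and 100% in untreated cells, and the last exon farthest downstream had 6.46, 4.61 and 9.98 FPKM with FSH and FBS and 0, 1.94 and 0 FPKM in untreated cells.

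Kctd17, an adaptor of the cullin 3 ubiquitin ligase, had a downstream last exon of 11 bases at 14.2, 7.32 and 6.60 FPKM with FSH and FBS and 0.432, 1.49 and 1.93 FPKM in untreated cells. Its shares were 58.8%, 49.5% and 33.5% with FSH and FBS and 3.23%, 10.6% and 18.7% in untreated cells. An exon of 11 bases is far shorter than a sequencing read, and how the authors' software set its FPKM is not given. Tmem132a, a transmembrane protein gene, had an upstream share of 23.2%, 16.8% and 10.7% with FSH and FBS and 45.5%, 49.6% and 42.4% in untreated cells. Its exon levels were 3.62, 3.04 and 1.85 FPKM with FSH and FBS and 19.9, 22.4 and 15.9 FPKM in untreated cells. Dcaf15, the substrate receptor of a cullin 4 ubiquitin ligase, had a share of its shorter last exon of 100%, 90.5% and 84.2% with FSH and FBS and 44.2%, 38.1% and 80.0% in untreated cells. Untreated library 3 lay about 4 points below the lowest FSH and FBS library. The plot of shares by library shows for each gene how wide the gap between treatments was beside the spread within them.

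**Figure D3:**
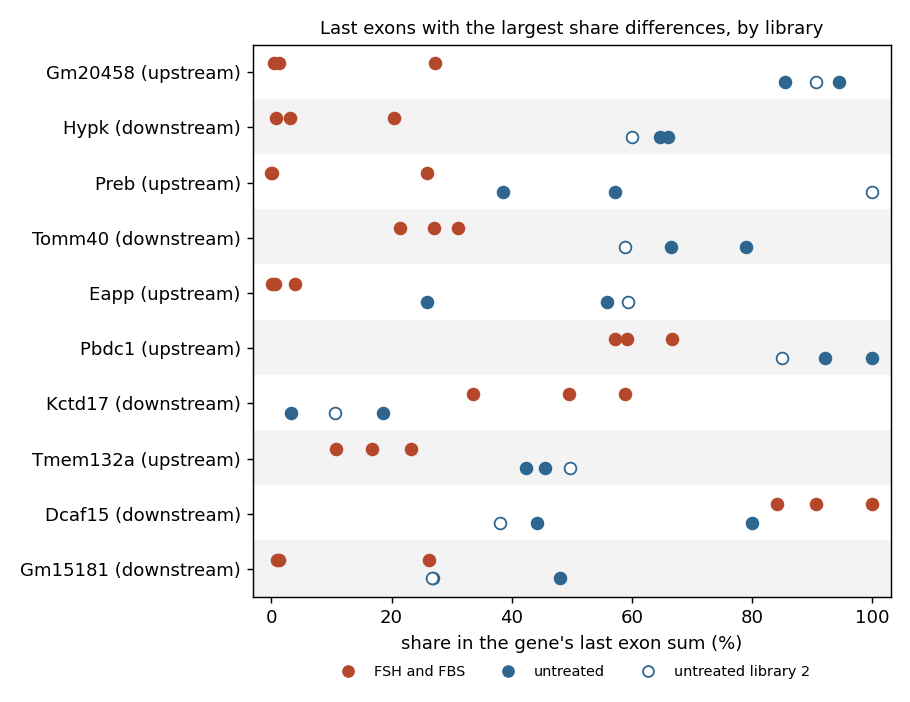
Share (percent) of the named last exon in its gene's last exon sum for the 10 genes with the largest differences, 1 point per library, with FSH and FBS above untreated in each row and untreated library 2 as an open circle. In Gm20458 the FSH and FBS libraries lie at 0.485% to 27.3% and the untreated ones at 85.4% to 94.5%, while in Gm15181 and Dcaf15 the groups nearly meet.

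A list of genes to be described in any case held 54, of which 6 were members. They had been listed because their last exons are textbook examples or because cumulus cells use them. Lmna, which encodes lamins A and C of the nuclear lamina, has 2 last exons with a shared end, at chr3:88480147-88483413 and chr3:88480147-88482100. The longer one had 61.0, 60.4 and 157 FPKM with FSH and FBS and 0.966, 1.39 and 41.2 FPKM in untreated cells. The shorter one had 26.1, 54.8 and 40.9 FPKM with FSH and FBS and 35.3, 34.2 and 20.2 FPKM in untreated cells. The shorter exon's share was 29.99%, 47.6% and 20.7% with FSH and FBS and 97.3%, 96.1% and 33.0% in untreated cells. Untreated libraries 1 and 2 thus stood far above the rest, while untreated library 3 lay within the range of the FSH and FBS libraries. The difference of −34.5 points (30.4% ± 13.6 with FSH and FBS and 64.8% ± 45.1 untreated, SD, n = 2 each) lay within the spread of the untreated samples and had a limma adjusted p of 0.999. These exons were not assigned to lamin A or lamin C.

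In Tmpo, which encodes the nuclear proteins called thymopoietins, the last exons lie 13603 bases apart and the shares of the treatments overlapped. The downstream exon held 76.5%, 74.3% and 73.9% with FSH and FBS and 75.5%, 80.9% and 79.3% in untreated cells, a difference of −4.09 points. In Hnrnpa2b1, which encodes an RNA-binding protein, the shorter last exon held 46.0%, 40.9% and 39.7% with FSH and FBS and 41.8%, 36.7% and 41.3% in untreated cells, a difference of 1.36 points. The longer exon held the larger share in every library. Fn1, the fibronectin gene, had its last exon farthest downstream at 98.0%, 72.0% and 97.9% with FSH and FBS and 77.6%, 70.5% and 95.6% in untreated cells. Fst encodes follistatin, which binds activin. Its shorter last exon had 115, 121 and 110 FPKM with FSH and FBS and 84.2, 82.0 and 71.8 FPKM in untreated cells. Its longer one, whose start lies 300 bases farther upstream, was unlisted in FSH and FBS library 3 and in untreated libraries 1 and 3. For Cyp11a1, the gene of the enzyme that begins steroid synthesis from cholesterol, a last exon was listed only in FSH and FBS library 1, at 120.2 FPKM, and another only in untreated library 2, at 35.3 FPKM, so no share could be compared.

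Beyond these and the 10 genes above, the single genes whose last exons are described were chosen after their values were seen. Each had a limma adjusted p of 0.999 for its last exon share. Manf, which encodes a secreted protein of the endoplasmic reticulum stress response, differed far more at one end than at the other. Its downstream last exon, at chr9:106887415-106889225, had 68.4, 68.1 and 91.1 FPKM with FSH and FBS and 23.3, 25.0 and 20.8 FPKM in untreated cells. Its upstream last exon, at chr9:106890031-106890302, had 8.64, 8.57 and 8.72 FPKM with FSH and FBS and 7.87, 8.31 and 7.56 FPKM in untreated cells. The downstream share was 88.4%, 88.3% and 89.9% with FSH and FBS and 74.4%, 74.3% and 69.6% in untreated cells, with the groups well apart and the libraries of each close together. The difference was 17.1 points (89.1% ± 1.07 with FSH and FBS and 72.0% ± 3.32 untreated, SD, n = 2 each). As a whole the gene averaged 89.3 FPKM with FSH and FBS and 31.2 FPKM in untreated cells, and its log2 fold change of 1.48 (SE 0.36) had a limma adjusted p of 0.0830, and of 0.00957 with the sample number as a block.

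Mat2a encodes the enzyme that makes S-adenosylmethionine. Its longer last exon, at chr6:72432799-72435114, was unlisted in all 3 FSH and FBS libraries and had 12.4, 11.7 and 7.30 FPKM in untreated cells. Its shorter last exon, at chr6:72432799-72434395, had 99.3, 104 and 44.8 FPKM with FSH and FBS and 66.6, 65.6 and 35.9 FPKM in untreated cells. The longer exon therefore held 15.7%, 15.1% and 16.9% of the untreated signal. Calcoco1, a coactivator and selective autophagy receptor gene, had its upstream last exon at 2.48, 2.30 and 0.481 FPKM with FSH and FBS and 11.996, 12.6 and 7.13 FPKM in untreated cells. Its downstream exon had 20.6, 21.3 and 13.2 FPKM with FSH and FBS and 27.0, 20.4 and 14.2 FPKM in untreated cells. The upstream share was 10.7%, 9.68% and 3.44% with FSH and FBS and 30.6%, 37.9% and 33.1% in untreated cells. The plot of both last exons in each library sets these 3 genes beside Lmna, Hnrnpa2b1 and Rpl30.

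**Figure D4:**
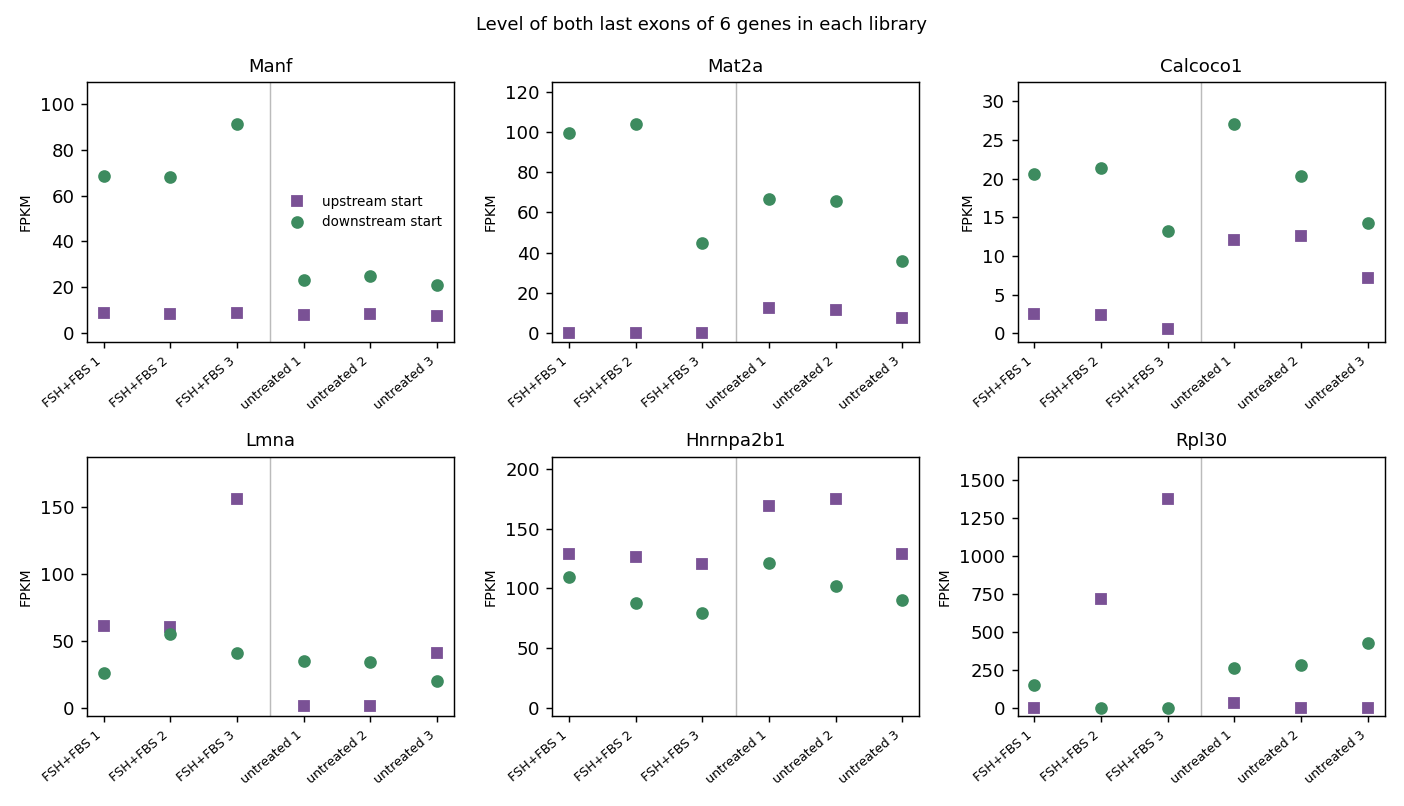
FPKM of the upstream-starting (squares) and downstream-starting (circles) last exon in each of the 6 libraries, with FSH and FBS left of untreated, for Manf, Mat2a, Calcoco1, Lmna, Hnrnpa2b1 and Rpl30. In Manf the downstream exon lies at 68.1 to 91.1 FPKM with FSH and FBS against 20.8 to 25.0 FPKM untreated, and the upstream exon hardly differs, while in Rpl30 libraries of 1 treatment hold opposite exons.

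Rpl30, which encodes a protein of the large ribosomal subunit, shows what the spread within a treatment can be. Its longer last exon had 0, 713 and 1379 FPKM with FSH and FBS and 32.3, 0 and 0 FPKM in untreated cells. Its shorter one had 151, 0 and 0 FPKM with FSH and FBS and 258, 283 and 427 FPKM in untreated cells. FSH and FBS library 1 therefore held the exon of the untreated libraries. Across genes in general, this library was far closer to library 2 of its group than library 3 was. Rpl30 itself was an exception in fold terms, its whole-gene level being 151, 715 and 1379 FPKM in the same order. Khdrbs1, which encodes the RNA-binding protein Sam68, divided by library number in both treatments. Its upstream last exon held 14.3%, 10.6% and 94.3% with FSH and FBS and 5.70%, 2.42% and 94.0% in untreated cells, so the libraries numbered 3 differed from the others and the treatments did not separate. Timp1, an inhibitor of metalloproteinases, owed its second last exon to untreated library 2 alone. That library placed 17.8 FPKM on a last exon over the nearby gene Araf and listed nothing at the Timp1 end, while the other 5 libraries held 100% of the signal there. Without that library the difference in share was 0.

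The arrangement of the last exons divided the 474 genes with 2 into 3 classes. In 318 genes the exons did not overlap, with a median of 6110 bases between their starts. In 102 genes the exons ended at the same base and differed in where they began, with a median of 542 bases between the starts. In 54 genes they overlapped with different ends. Among genes with separate last exons 277 were tested, and the downstream share was higher with FSH and FBS in 147 and lower in 130. Its median difference was 0.554 points. The mean downstream share was 60.2%, 58.7% and 64.2% in FSH and FBS libraries and 60.7%, 64.0% and 60.1% in untreated ones, so the groups overlapped. All 3 libraries of a treatment lay apart from the other 3 in 15 of these genes with the downstream share higher with FSH and FBS and in 7 with it lower. In the 50 tested genes with overlapping exons the downstream share was higher in 30 and lower in 20, with a median difference of 4.55 points. The libraries lay apart in 7 with it higher and in 1 with it lower. Over all 1056 last exons tested 9.66% lay apart, and none was called in any class. Whether the direction differs between classes was not tested.

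Pairs with a shared end differ in how much sequence upstream of the last splice site the transcript keeps. In the 90 tested genes the longer last exon had a lower share with FSH and FBS in 55 and a higher one in 35. The median difference was −3.47 points. The mean share of the longer exon was 49.1%, 49.2% and 42.6% with FSH and FBS and 51.1%, 47.5% and 46.3% in untreated cells, and the groups overlapped. In 8 of these genes the longer exon was lower in every FSH and FBS library than in any untreated one, and in 1, Pja1, it was higher; without untreated library 2 the numbers were 12 and 2. In total these counts are close to the 9.66% and 15.6% of all last exons tested, so their number does not set the class apart. The shorter exon lay apart in 10 genes with it higher with FSH and FBS and in 1 with it lower. Whether that direction sets the class apart was not tested. The 8 were 6030458C11Rik, Abcb8, Dcaf15, Eapp, Isca2, Mat2a, Ndufb10 and Rexo1, none of which was called. Abcb8, Mat2a and Pja1 had an exon kept through untreated libraries alone, so the rule fixed their direction in these counts. Abcb8, which encodes a mitochondrial ABC transporter, had its longer last exon unlisted in all FSH and FBS libraries and at 5.63, 3.72 and 1.34 FPKM in untreated ones. In the ubiquitin ligase gene Pja1 the starts of the exons lie only 9 bases apart, and the shorter exon was the one unlisted with FSH and FBS.

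Of the 1197 members, 1032 overlapped their own gene in RefSeq by position, on either strand. A further 133, in 91 genes, overlapped only other genes, and 32 overlapped none. In 60 genes 1 kept last exon lay in the gene and another only over a different gene, as in Tomm40, and 50 of these were tested. Cdc26, which encodes a subunit of the anaphase-promoting complex, is another. Its last exon over Slc31a1, a copper transporter gene, had 0, 6.66 and 0 FPKM with FSH and FBS and 7.14, 7.93 and 9.01 FPKM in untreated cells. Its own last exon had 34.5, 4.84 and 54.1 FPKM with FSH and FBS and 5.65, 6.15 and 2.58 FPKM in untreated cells. FSH and FBS library 2 lay with the untreated libraries for both exons. Leaving out the members that overlap only another gene left 910 tested and 0 called, with 26 at an unadjusted p under 0.05.

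The genes that carry out and guide cleavage and polyadenylation were compared at gene level. Of 40 listed genes 37 were tested, and by limma none was called higher or lower over all 9022 genes, of which 214 were called (2.37%); 2 of the 37 had an unadjusted p under 0.05. Their median log2 fold change was 0.10, against 0.24 for all genes tested. Pabpn1, the nuclear poly(A)-binding protein that controls tail length and can limit the use of upstream poly(A) sites, had 140, 128 and 126 FPKM with FSH and FBS and 243, 238 and 303 FPKM in untreated cells. The groups did not overlap, and the log2 fold change was −1.05 (SE 0.40; limma adjusted p = 0.259). Papolg, a poly(A) polymerase, had 2.88, 5.56 and 4.48 FPKM with FSH and FBS and 9.11, 9.66 and 8.04 FPKM in untreated cells (log2 fold change −0.86, SE 0.36; limma adjusted p = 0.284). With all 6 libraries as separate replicates both were called lower, and with the sample number as a block Papolg was (limma adjusted p = 0.0459). The cleavage factor subunits Nudt21 and Cpsf6, which favour distal poly(A) sites, had log2 fold changes of −0.28 (SE 0.34) and −0.65 (SE 0.44). Pcf11, which promotes termination and the use of proximal sites, was at 0.10 (SE 0.43), and none of the 3 passed.

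Of these genes, Khdrbs1, Sympk and Tardbp had alternative last exons themselves. In Sympk, the scaffold of the cleavage machinery, the downstream last exon held 89.8%, 91.8% and 98.0% with FSH and FBS and 85.1%, 90.7% and 91.8% in untreated cells. In Tardbp, which encodes the RNA-binding protein TDP-43 and regulates its own messenger through its end, the last exon farthest downstream held 35.6%, 77.6% and 71.8% with FSH and FBS and 66.8%, 70.0% and 23.9% in untreated cells. Neither separated the treatments.

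Of the 550 genes 531 were tested at gene level, and limma called 9 higher and 2 lower, or 2.07% against 2.37% of all genes tested. The higher ones were Arrdc4, Cyp11a1, Ero1l, Mrap, Mthfd1l, Nupr1, Osgin2, Synm and Timp1, and the lower ones Cnmd and Gpc2. The sample number as a block pairs the averaged libraries 1 and 2 of the groups, and library 3 with library 3. With it, 55 were called higher and 24 lower, or 14.9% against 16.0% of all genes tested. The FPKM of all listed last exons summed to 320301 in FSH and FBS library 3, against 203557 to 212547 in each of the others. Rescaling the libraries by median of ratios, or leaving out untreated library 3, left Arrdc4 as the only higher call, while Cnmd and Gpc2 were called lower in both. Without FSH and FBS library 3 there were 20 higher and 6 lower. Arrdc4, an arrestin-domain gene, rose, and both of its last exons were higher in every FSH and FBS library. Its upstream last exon had 13.4, 14.4 and 18.5 FPKM with FSH and FBS and 1.65, 2.03 and 2.42 FPKM in untreated cells, and its downstream one 12.5, 14.7 and 26.4 FPKM with FSH and FBS and 1.66, 2.08 and 2.02 FPKM in untreated cells. The gene's log2 fold change was 2.84 (SE 0.38, limma adjusted p = 0.0108), while the downstream share differed by 6.15 points (54.1% ± 6.66 with FSH and FBS and 47.9% ± 3.45 untreated, SD, n = 2 each). The level of the gene thus differed several-fold with its last exons used almost evenly in both groups.

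Nupr1, which encodes a small stress-induced chromatin protein, and Mrap, which encodes the accessory protein of the ACTH receptor, rose with nearly all of their signal on 1 last exon. That of Nupr1 had 580, 642 and 1176 FPKM with FSH and FBS and 77.7, 87.1 and 63.2 FPKM in untreated cells, and held 98.0% to 99.9% in each library. That of Mrap had 170, 166 and 302 FPKM with FSH and FBS and 25.5, 26.7 and 39.5 FPKM in untreated cells, and held 95.8% to 100%. The log2 fold changes were 3.53 (SE 0.49, limma adjusted p = 0.0112) and 2.75 (SE 0.44, limma adjusted p = 0.0204). With libraries rescaled by median of ratios they were 3.26 and 2.48 and were not called (limma adjusted p = 0.0526 and 0.0871). Ero1l, the disulfide-forming oxidase of the endoplasmic reticulum (Ero1a in RefSeq), rose with a log2 fold change of 2.02 (SE 0.38, limma adjusted p = 0.0344). Rescaled in the same way, Ero1l was at 1.76 and was not called (limma adjusted p = 0.0887). Its downstream last exon had 24.1, 26.5 and 22.7 FPKM with FSH and FBS and 9.03, 10.2 and 5.12 FPKM in untreated cells. Its upstream last exon had 34.4, 18.8 and 8.96 FPKM with FSH and FBS, and in untreated cells it was unlisted in libraries 1 and 2 and at 3.77 FPKM in library 3. Cnmd, which encodes chondromodulin, fell to 4.67, 3.30 and 0.101 FPKM with FSH and FBS, against 60.1, 69.6 and 69.1 FPKM in untreated cells (log2 fold change −4.86, SE 0.64, limma adjusted p = 0.0101), and the starts of its last exons are 3 bases apart.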

How the data were processed

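RNA from 6 cumulus cell libraries was used, 3 per group. Per the file headers, the authors' deposited tables list transcript events with a position and an FPKM. The submitters' processing notes name HISAT2 2.0.1 as a tool. The assembler, its filters and the build are not given in the sources used here. No counts are held, so depth is unknown and no counting interval is given. A listed FPKM is never 0, and 0 here means unlisted, which can be a failed estimate.

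The members and lists were chosen with earlier results of these data known. A last exon was identified by chromosome, strand and inner boundary; 132 members had an outer end that varied between libraries. Symbols matched for 549 of 550 genes. RefSeq (GRCm38.p6) served only for names and neighbours.

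FPKM of libraries 1 and 2 of a group were averaged. Shares, means and SDs are over those 2 samples. No label calls the replicates separate cultures or mice. The p-values therefore cover only the spread among these samples, perhaps technical. limma 3.58.1 in R 4.3.3, two-sided, tested log2 ratios with an intensity trend and Benjamini-Hochberg adjustment at 0.05 over every last exon tested, and for genes log2(FPKM + 1) over genes in every table that average 1 FPKM or more. Folds of low genes are understated on this scale. A gene's FPKM was the larger of its summed first and summed last exons. The 2 last exons of a gene are near mirror images, not independent. At gene level, deviations of same-numbered libraries from their group mean correlated at 0.319, 0.311 and 0.508, all over 0.1. FSH and FBS library 2 correlated at 0.332 with untreated library 1, so the numbers do not tell libraries 1 and 2 apart. Library 3 of either group correlated negatively with libraries 1 and 2 of the other, from −0.441 to −0.361. The block thus pairs only the averaged libraries 1 and 2 of the groups, and library 3 with library 3. For last exon shares not all same-numbered correlations were over 0.1. The script was tested on simulated data.

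Named genes were those called (none), the 10 largest non-overlapping differences under the minimum given, and members of a list of 54 genes (6). Alternatives were the pseudocount (0.25 FPKM), the share as the scale, a minimum of 5 FPKM or none, the denominator, merging overlapping exons, exons listed in all libraries, separate libraries, the replicate block, each library left out and, for genes, rescaling. Alternatives added after seeing the data were the 5 libraries of one catalogue, those as separate replicates, no exons lying only over another gene, and the gene alternatives applied to the member genes.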

Additional observations from a re-analysis of the deposited data

How the results depend on the processing

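The last exon calls were 0 higher and 0 lower under all alternatives but these. With sample number as a replicate block limma called 2 higher and 2 lower (both last exons of Rpl30, 1 of Wls and 1 of Gm20458; adjusted p 0.0168 for Rpl30 and 0.0480 for Wls and Gm20458). For shares the numbers did not pair the samples: deviations of same-numbered libraries correlated at −0.07, 0.01 and 0.14, not all over 0.1. Not every library correlated best with its own number, which was also so at gene level. Leaving out a library gave 0 to 1 in each direction; the 1 was Snord42b without FSH and FBS library 2 (adjusted p 0.0338). At an unadjusted p under 0.05 there were 13 of 287 last exons with a minimum of 5 FPKM, 15 of 724 with overlapping exons merged, 346 of 5389 with no minimum, 63 of 1056 with all 6 libraries separate, 91 of 1073 without untreated library 3 and 42 of 1070 without untreated library 2. Over the 5 libraries of one catalogue there were 40 of 1005, and 53 with them separate; both called 0. For cleavage and polyadenylation genes, 2 were called lower with all 6 libraries separate (Pabpn1 and Papolg) and 1 with the replicate block (Papolg), and leaving out a library gave 0 in each case. Among the members, gene level calls were 49 higher and 22 lower with all 6 libraries separate, 55 and 24 with the replicate block, and 1 and 2 with libraries rescaled by median of ratios. Leaving out a library gave 1 to 20 higher and 2 to 6 lower.

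Of 34 share differences, 28 never changed sign under the alternatives that gave them a value, which were 13 to 18 of 18 for each. For the 10 genes picked because their groups did not overlap, leaving out a library could not change the sign. With a library left out, the share difference of Cnmd (4.11 points) ran from −4.29 to 12.5, that of Fn1 (5.68) from −2.03 to 16.7, that of Fst (−3.12) from −9.41 to 0.0584, that of Khdrbs1 (4.27) from −36.7 to 49.2, that of Mrap (−1.26) from −1.29 to 0.853 and that of Nupr1 (0.420) from −0.0393 to 0.846. The sign changed without FSH and FBS library 2 (Cnmd), FSH and FBS library 3 (Cnmd, Fn1, Khdrbs1), untreated library 2 (Nupr1) or untreated library 3 (Cnmd, Fst, Mrap). Over the 5 libraries of one catalogue Nupr1 was at −0.0393, and with those as separate replicates it was at −0.128 and Khdrbs1 at −10.1. The cause was not tested, and none of these was called.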

Other observations

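The genes here were chosen after their values were seen. Wls encodes the carrier of Wnt proteins to the cell surface. Its downstream last exon had 17.7, 0.00721 and 18.9 FPKM with FSH and FBS and 0.0946, 0.0146 and 1.25 FPKM in untreated cells, so FSH and FBS libraries 1 and 3 were high and library 2 was not. Its middle last exon had 13.1, 25.2 and 0.409 FPKM with FSH and FBS and 32.6, 34.5 and 19.1 FPKM in untreated cells. Snord42b, a small nucleolar RNA gene whose listed last exons lie over Rpl23a and Tlcd1, had its upstream last exon at 0, 565 and 0 FPKM with FSH and FBS and 757, 235 and 617 FPKM in untreated cells. In Dcun1d5, a gene of the neddylation pathway, the shorter last exon held 100% in all 3 FSH and FBS libraries and 86.4%, 89.8% and 89.6% in untreated cells. The longer one had 7.70, 5.66 and 0 FPKM in untreated cells, so in untreated library 3 the rest lay on last exons below the minimum. With only the kept last exons summed, the difference was 5.96 in place of 11.2 points.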
